A study of Mus musculus with 14 samples.

Results

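The hearts described here came from male C57BL/6J mice that received an adeno-associated virus of serotype 9 (AAV9) and were then fed a high-fat diet (HFD). They are 7 of the 14 hearts of the series: 4 from mice given AAV-CTRP9 (hearts CTRP9_609, CTRP9_610, CTRP9_611 and CTRP9_620) and 3 from mice given AAV-Luc (hearts Luc_614, Luc_615 and Luc_624). The titles of the 3 AAV-Luc samples begin with CTRP9, whereas their descriptions and treatments name luciferase, and groups were taken from the treatment. Every gene with a symbol was followed, 13219 in all. AAV-CTRP9 carries the open reading frame of mouse C1qtnf9, and AAV-Luc carries Renilla luciferase. In both, a cardiac troponin T promoter directs expression to cardiomyocytes. Mice of both groups were WT at the C1qtnf9 locus, received 1e12 viral genomes into a tail vein at 7 to 9 weeks of age, ate a diet with 60% of its energy from fat for 12 weeks and were fasted for 6 hours before they were killed. AAV-Luc mice therefore share the virus, promoter and diet with AAV-CTRP9 mice, and no heart without virus or on another diet entered the comparison. The other 7 hearts came from KO and WT mice on the same diet without virus.

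CTRP9, the product of C1qtnf9, is a secreted glycoprotein of the C1q/TNF family and a relative of adiponectin, with a collagen stalk and a globular head. In the normal heart it is made mainly by endothelial cells, whereas the troponin T vector directs it to cardiomyocytes. It can act through the adiponectin receptor AdipoR1 and AMP-activated kinase. The comparison asks how the heart's RNA differed when CTRP9 was supplied by muscle cells during an HFD.

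Values are counts scaled to a common library size (counts per 1000000 reads, CPM), obtained from deposited log2 CPM values, and each gene is represented by its transcript with the highest mean level. The reads that the values hold came out whole, on scaled library totals of 23626917 to 30262264 reads. Groups were compared with limma on log2 CPM, and p-values were adjusted by the Benjamini-Hochberg method over all 13219 genes with a threshold of 0.05. The files hold 1 library per mouse. The muscle markers fitted the label: Myh6, the main ventricular myosin of the adult mouse, was at 4271 to 6350 CPM and Tnnt2, cardiac troponin T, at 1435 to 1843 CPM. The atrial marker Myl4 was at 1.39 to 1.62 CPM. The atrial markers Myl7 and Sln, the adipocyte markers Adipoq and Plin1 and the lung marker Sftpc had no value here. The mitochondrial gene mt-Co2 and the ribosomal protein gene Rps6 had none either, so a missing value does not show that a tissue was absent.

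The libraries of the control group were less alike than those of the treated group. In Luc_614 genes of high GC content stood above their average over all hearts and genes of low GC content below it (Spearman's rho 0.52 across genes, which are not independent), whereas rho was -0.27 to -0.11 in the other hearts. With transcript length rho was -0.27 in Luc_614, 0.23 in Luc_624 and -0.0079 to 0.097 in the other hearts. Ttn, the giant spring protein of the sarcomere, had 1028 CPM in Luc_614, against 2396 CPM for Luc_615 and 2645 CPM for Luc_624. Transcripts typical of blood and liver also differed between control hearts. The 5 measured erythroid genes of 6 listed summed to 183, 129, 165 and 118 CPM in the AAV-CTRP9 hearts and to 139, 272 and 724 CPM in Luc_614, Luc_615 and Luc_624. A list of hepatocyte products, chosen after these values were seen, had 26 of 31 genes measured and summed to 30.9, 51.99, 77.4 and 81.1 CPM in the AAV-CTRP9 hearts and to 17.1, 176 and 391 CPM in the AAV-Luc hearts. Alb, serum albumin, was at 3.26, 9.13, 17.4 and 11.3 CPM and at 0.132, 19.1 and 76.00 CPM in the same order. Blood and liver transcripts were thus highest in Luc_615 and Luc_624, and Luc_614 was at the level of the treated hearts or below it. Whether they came with the tissue or arose during library preparation or sequencing was not tested. Without Luc_614 the log2 fold change of Ttn went from 0.53 to 0.09. Of the 108 genes named for these hearts 45 passed limma without Luc_614, Lyz2 and Cd248 among them. Over all 13219 genes 0.219% were called higher and 0.915% lower in that fit. Many named genes were picked by their small p in these same hearts, so the count of 45 reflects that choice. Values without Luc_614 are given for the genes that it moved most.

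**Figure D1:**
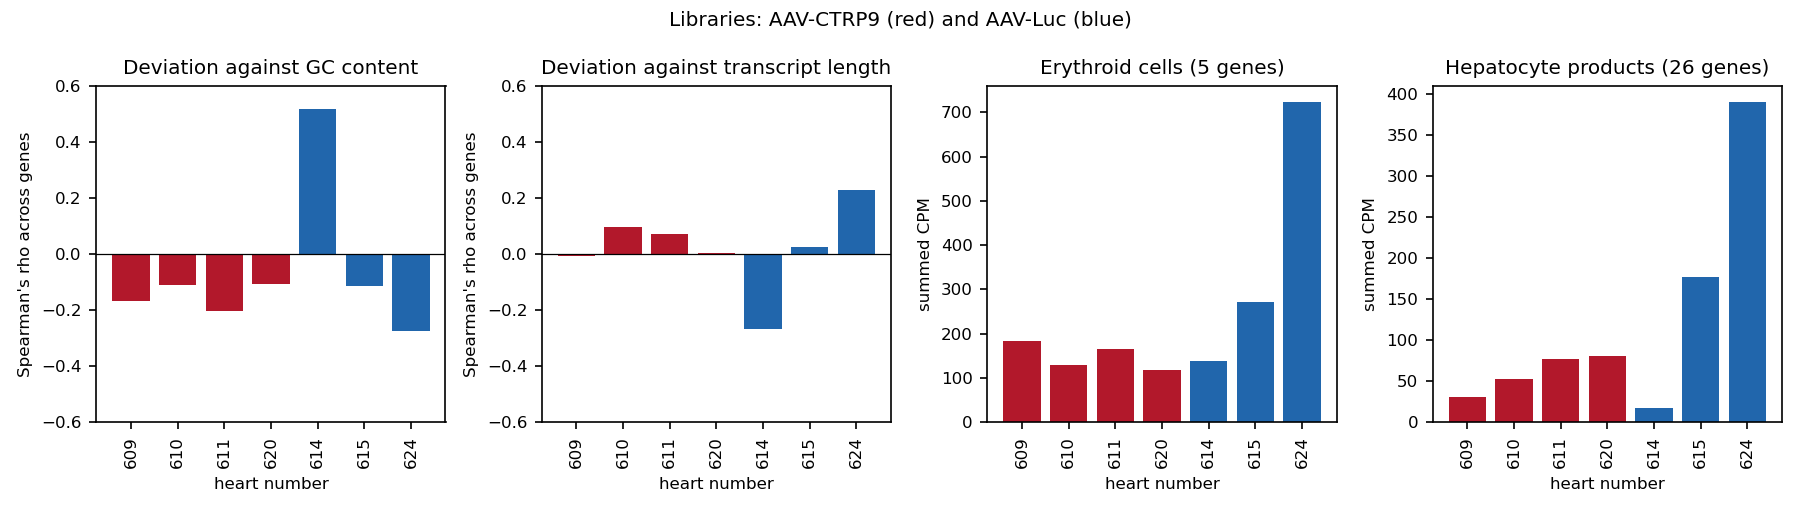
Measures of each library, by heart (x axis, number of its name), for AAV-CTRP9 (red) and AAV-Luc (blue) hearts. The 2 panels on the left show Spearman's rho across genes between the deviation of a heart and the GC content or length of the transcript, the 2 on the right the summed CPM of 5 erythroid and 26 hepatocyte genes. Luc_614 alone has a positive rho with GC content, and Luc_624 has the highest erythroid and hepatocyte sums.

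Lyz2 and Cd248 passed the test, and both fell. They were 2 of 13219 genes, so that 0.0151% of genes were called lower and 0.0% higher. At an unadjusted p under 0.05, 569 genes (4.3%) were higher and 577 (4.36%) lower with AAV-CTRP9. With library totals as the only scaling the split was 263 higher and 807 lower, and with upper quartile scaling 398 higher and 713 lower. Groups did not overlap for 593 genes on the higher side (4.49%) and for 600 on the lower side (4.54%). Without Luc_614 limma called 150 genes, 29 higher (0.219%) and 121 lower (0.915%), of which 22 were in the hepatocyte list. Without Luc_615 it called 1 gene, Zmat1, which was higher, and without any other heart 0 (unadjusted p under 0.05 for 749 to 1667 genes over these 7 fits), so that the calls for Lyz2 and Cd248 needed every heart other than Luc_614. Count models applied to the recovered reads differed among themselves: the quasi-likelihood test of edgeR called Lyz2 and Cd248 lower and 0 genes higher (501 at an unadjusted p under 0.05), its likelihood ratio test 74 lower and 10 higher, and DESeq2 54 lower and 7 higher. In the following, only Lyz2 and Cd248 passed limma over 7 hearts, and values of other genes are given as levels that were higher or lower.

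**Figure D2:**
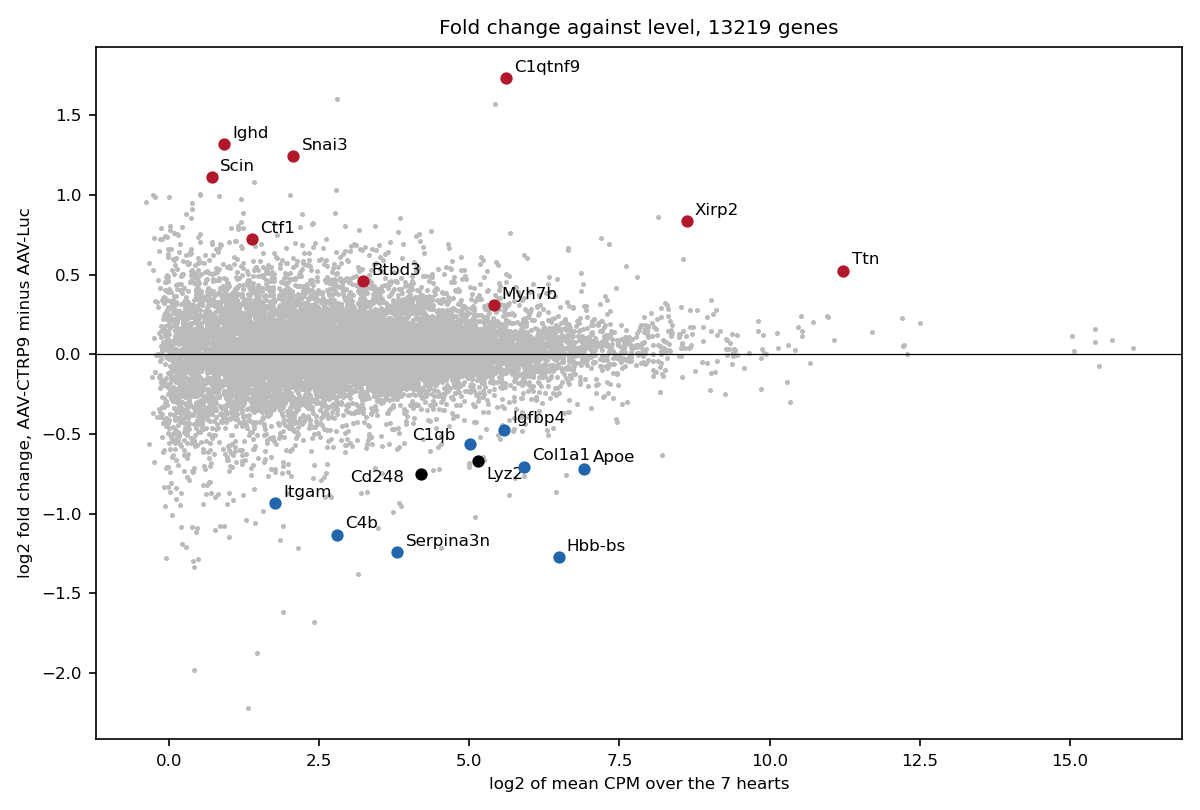
Log2 fold change between AAV-CTRP9 and AAV-Luc hearts (y axis) against log2 of the mean CPM over the 7 hearts (x axis) for 13219 genes. Black points are Lyz2 and Cd248, which passed limma. Red and blue points are other selected genes, among them the erythroid gene Hbb-bs. C1qtnf9 has the highest fold change, 1.73.

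C1qtnf9 is the gene that AAV-CTRP9 delivers. It was at 109, 66.96, 44.3 and 59.6 CPM in the AAV-CTRP9 hearts and at 26.2, 18.8 and 16.02 CPM in the AAV-Luc hearts. Every treated heart was above every control heart, and CTRP9_609 held the highest level. The ratio of the group means was 3.44 (log2 fold change 1.73, standard error 0.26, limma adjusted p = 0.11). Without Luc_614 the fold change was 1.93 (adjusted p = 0.00085), again from limma. It passed with GC and length trends removed (limma adjusted p = 0.026), by the likelihood ratio test of edgeR (adjusted p = 8.1e-07) and by DESeq2 (adjusted p = 0.0016). It did not pass the quasi-likelihood test of edgeR (adjusted p = 0.095), and its limma adjusted p was 0.17 without Luc_615, 0.20 without Luc_624 and at most 0.43 with any heart left out. Reads of the vector and of the mouse's own gene cannot be told apart in these values.

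C1qtnf9 lies on the plus strand of chromosome 14 from 60768134 to 60780869 (GRCm38, GENCODE M21), and the lncRNA gene Mipepos lies on the minus strand from 60776329 to 60784581. The transcripts share 0 exon bases, but 88.3% of the exon bases of C1qtnf9 fall between the ends of Mipepos. Mipepos was at 91.9, 57.5, 39.95 and 52.6 CPM in the AAV-CTRP9 hearts and at 25.7, 18.2 and 15.6 CPM in the AAV-Luc hearts. Its reads amounted to 97.2% to 98.0% of those of C1qtnf9 in the AAV-Luc hearts and to 84.6% to 90.2% in the AAV-CTRP9 hearts. Across the table, pairs of transcripts of one gene with the same ends but different exons had identical values in every heart in 94.4% of 1141 cases, against 12.5% of 25866 pairs with different ends. Values therefore behave as counts over the span from the first to the last base of a transcript, introns and the opposite strand included. Mipepos was not treated as a separate result for that reason. Other genes given below overlap a measured gene in the same way. The shared part was the whole span for Igkc (with Gm30211), and 82.8% of it for Mt2 (Gm45774), 72.8% for Nppa (Gm13054), 48.3% for Cebpd (Spidr) and 44.2% for Ndufs1 (Ino80dos). It was 31.6% for Xirp2 (Gm13601), 22.96% for Ttn (Gm13938), 13.7% for Pcnt (1700094J05Rik) and 9.197% for Cxcl16 (Zmynd15), and at most 3.32% for Csf1r, Pfkm, Mfap4, Rnf207 and Myh7b. Larger overlaps of Itgam, Ccl6, Pln and Ssc5d are given with their values.

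No receptor or signalling gene of CTRP9, adiponectin and insulin passed limma. All 23 listed genes had a value. At an unadjusted p under 0.05, 1 was higher, C1qtnf9 itself, and 3 (13.04%) were lower, where 4.36% of all genes were lower, and their median log2 fold change was 0.02, against 0.03 over all genes. Adipor1, the receptor through which CTRP9 can act, was at 95.8 to 109.7 CPM against 93.7 to 111 CPM. Adipor2, the second adiponectin receptor, was at 46.6, 47.7, 44.2 and 44.7 CPM in the AAV-CTRP9 hearts and at 54.1, 53.3 and 48.5 CPM in the AAV-Luc hearts, lower without overlap but short of the test (log2 fold change -0.18, standard error 0.07, limma adjusted p = 0.56). Cdh13, T-cadherin, which binds multimeric adiponectin, was at 127 to 141 CPM against 120.4 to 127 CPM and was not called (limma adjusted p = 0.62). The insulin-dependent glucose transporter Slc2a4 was at 136 to 155 CPM against 136 to 148 CPM, so its ranges overlapped.

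Irs2, an adaptor of the insulin receptor, showed how much the control hearts differed. It was at 5.21, 7.998, 6.38 and 5.55 CPM in the AAV-CTRP9 hearts and at 5.22, 17.6 and 15.9 CPM in the AAV-Luc hearts. Luc_614 lay within the range of the treated hearts, and Luc_615 and Luc_624 were above all of them. Over 7 hearts Irs2 did not pass (log2 fold change -0.87, standard error 0.35, limma adjusted p = 0.56), and without Luc_614 the limma fold change was -1.42 (adjusted p = 0.00085).

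**Figure D3:**
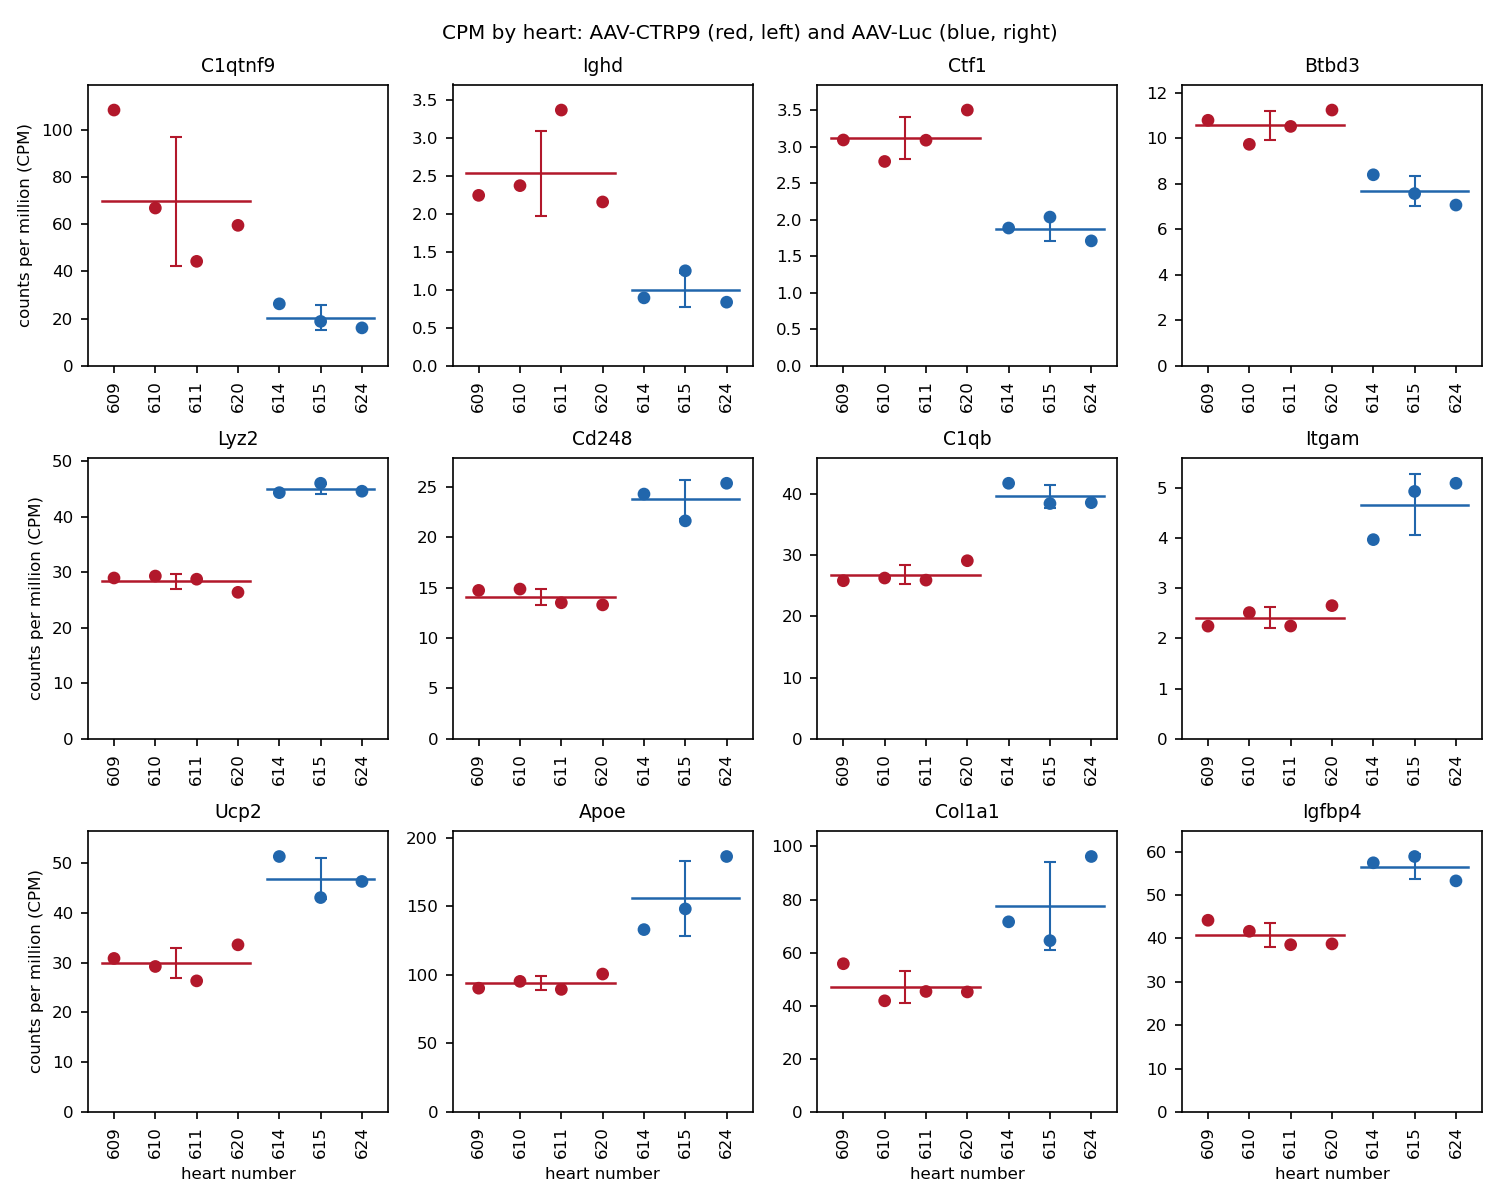
CPM (y axis) of 12 genes in each heart (x axis, number of its name), AAV-CTRP9 in red and AAV-Luc in blue, with the group mean as a line and the SD as an error bar. Lyz2 is at 26.4 to 29.3 CPM in the treated and 44.3 to 46.0 CPM in the control hearts, and no gene shown has overlapping groups.

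Lyz2 encodes lysozyme M, an enzyme of monocytes, macrophages and granulocytes, and is the standard locus for myeloid Cre lines. It was at 28.95, 29.3, 28.7 and 26.4 CPM in the AAV-CTRP9 hearts and at 44.3, 46.00 and 44.6 CPM in the AAV-Luc hearts. The gap between the groups was wider than the spread within either. Its mean was 28.3 ± 1.33 CPM (SD, n = 4) against 44.96 ± 0.909 CPM (SD, n = 3) (log2 fold change -0.67, standard error 0.07, limma adjusted p = 0.035). Leaving out hearts in turn gave fold changes of -0.68 to -0.63 and limma adjusted p of 0.00089 to 0.19. Lyz2 was at a similar level in the 3 controls, whose libraries differed in GC trend and in blood and liver transcripts. The part of these library differences in the Lyz2 values was not tested. It lies on the minus strand of chromosome 10 from 117277331 to 117282321.

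Cd248 encodes endosialin, a surface glycoprotein of fibroblasts and pericytes. It was at 14.7, 14.9, 13.5 and 13.3 CPM in the AAV-CTRP9 hearts and at 24.3, 21.6 and 25.4 CPM in the AAV-Luc hearts. Again no control heart came near the treated range. The mean was 14.1 ± 0.814 CPM (SD, n = 4) against 23.8 ± 1.92 CPM (SD, n = 3) (log2 fold change -0.75, standard error 0.09, limma adjusted p = 0.042). Fold changes lay between -0.82 and -0.70 with a heart left out, with limma adjusted p of 0.0022 to 0.19. The gene is on the plus strand of chromosome 19 from 5068078 to 5070682.

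Myeloid genes are known to depend on PU.1, an ETS family factor, and the start regions of Lyz2 and C1qb are shown for that reason. The sequences are RefSeq promoters (GRCm38.p6, minus strand, 5′ to 3′). That of Lyz2 is cut where the counted transcript begins, and that of C1qb at the RefSeq start, which lies before the start of the counted transcript. They were searched on both strands for GAGGAA, a PU.1 core, and for CAGGAAGT, an ETS site, which was chosen after the sequences had been read. Capitals mark the matches, written as the printed strand holds them.
Lyz2, chr10:117282322-117282522: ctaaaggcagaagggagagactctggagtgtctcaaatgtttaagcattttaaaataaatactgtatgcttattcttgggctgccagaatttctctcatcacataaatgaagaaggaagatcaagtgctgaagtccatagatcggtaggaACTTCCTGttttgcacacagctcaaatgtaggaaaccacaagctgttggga
C1qb, chr4:136886201-136886450: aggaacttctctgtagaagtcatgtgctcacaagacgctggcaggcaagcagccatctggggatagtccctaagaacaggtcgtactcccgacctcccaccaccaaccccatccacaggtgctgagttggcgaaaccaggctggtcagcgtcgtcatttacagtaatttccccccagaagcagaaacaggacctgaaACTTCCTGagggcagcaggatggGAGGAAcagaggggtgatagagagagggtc
Each region held 1 match to CAGGAAGT, and that of C1qb also held 1 match to GAGGAA, with no overlap between them. Of 32851 RefSeq promoters, 1.88% held CAGGAAGT in a window of 201 bases as used for Lyz2 and 2.69% in one of 250 bases as used for C1qb. GAGGAA was common, held by 23.3% in the window of 250 bases. The matches describe letters, and no binding was measured.

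Macrophage genes were lower in the AAV-CTRP9 hearts as a group of measurements, with Lyz2 as the member that passed. Of 31 listed monocyte and macrophage genes 27 had a value, and 26 of these had a fold change below 0. At an unadjusted p under 0.05, 17 (63.0%) were lower and 0 higher, where 4.36% of all genes were lower. The groups did not overlap for 12 (44.4%), against 4.54% of all genes. The same shares, and 4.3% for genes that were higher, are the background of the lists that follow. Lists and their members were chosen with earlier results of these data known. The shares of this and later lists therefore describe the members and were not tested against the background. The median log2 fold change was -0.51, -0.53 without Luc_614, and -0.53 to -0.43 with any heart left out. In whole hearts, fewer cells of a type and less RNA per cell cannot be told apart.

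Itgam, the alpha chain of the complement receptor Mac-1, was at 2.24, 2.51, 2.25 and 2.65 CPM in the AAV-CTRP9 hearts and at 3.97, 4.93 and 5.09 CPM in the AAV-Luc hearts. It was lower in every treated heart but did not pass (log2 fold change -0.93, standard error 0.15, limma adjusted p = 0.11), and 99.9% of its span is shared with Gm49368. Fcgr3, an activating Fc receptor, was at 4.87, 4.601, 3.402 and 3.92 CPM in the AAV-CTRP9 hearts and at 6.41, 7.35 and 6.49 CPM in the AAV-Luc hearts (log2 fold change -0.69, standard error 0.14, limma adjusted p = 0.21). Its groups were apart as well. Ms4a7, a macrophage tetraspan protein, was at 0.5502 to 0.912 CPM against 1.18 to 2.695 CPM, a low level with a wide control range. In Luc_614, whose erythroid sum was inside the treated range and whose hepatocyte sum was below it, Itgam and Fcgr3 were above every treated heart. The part of blood and liver transcripts in Itgam and Fcgr3 was not tested. The lysosomal protease gene Ctss was at 2.41 to 3.26 CPM against 3.77 to 6.68 CPM, and the lysosomal glycoprotein gene Cd68 at 7.67 to 8.93 CPM against 10.1 to 11.6 CPM. The defining markers differed less than Lyz2. Csf1r, the receptor that macrophages need to survive, was at 19.6, 19.7, 20.6 and 16.2 CPM in the AAV-CTRP9 hearts and at 24.7, 23.1 and 23.1 CPM in the AAV-Luc hearts (log2 fold change -0.32, standard error 0.10, limma adjusted p = 0.45). Adgre1, which encodes F4/80, was at 2.51 to 4.64 CPM against 3.404 to 4.96 CPM with overlapping groups. Mrc1, the mannose receptor of resident macrophages, was at 10.2, 8.71, 9.47 and 10.3 CPM in the AAV-CTRP9 hearts and at 7.53, 13.5 and 15.2 CPM in the AAV-Luc hearts. Luc_614 held the lowest Mrc1 level of all hearts and the other controls the highest levels, and without Luc_614 the limma fold change was -0.57 (adjusted p = 0.018).

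Genes shared by all leukocytes were less separated. Of 13 measured of 14, 12 had a fold change below 0 and 3 were lower at an unadjusted p under 0.05. Ptprc, which encodes the pan-leukocyte antigen CD45, was at 2.75, 2.94, 2.81 and 1.94 CPM in the AAV-CTRP9 hearts and at 0.859, 2.36 and 4.94 CPM in the AAV-Luc hearts. The control hearts spanned more than the treated hearts in both directions, and its fold change was 0.25 over 7 hearts and -0.40 without Luc_614 (limma adjusted p = 0.90 and 0.55). Laptm5, a lysosomal protein of blood cells, was at 14.7, 12.5, 10.7 and 9.403 CPM in the AAV-CTRP9 hearts and at 17.5, 16.99 and 17.8 CPM in the AAV-Luc hearts (log2 fold change -0.58, standard error 0.14, limma adjusted p = 0.31). The actin bundler gene Lcp1 was at 9.96 to 11.8 CPM against 12.1 to 17.3 CPM, also without overlap. Rac2, a GTPase of the phagocyte oxidase, was at 1.49 to 3.08 CPM against 2.92 to 5.25 CPM and overlapped.

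Complement genes were lower across the list. The 13 measured of 15 listed each had a fold change below 0. At an unadjusted p under 0.05, 10 (76.9%) were lower, against 4.36% of all genes, groups did not overlap for 9 (69.2%), against 4.54%, and the median log2 fold change was -0.48. C1qa, C1qb and C1qc encode the chains of C1q, the recognition protein of the classical pathway that macrophages make, and lie side by side on chromosome 4. C1qb was at 25.8, 26.3, 25.9 and 29.1 CPM in the AAV-CTRP9 hearts and at 41.7, 38.4 and 38.6 CPM in the AAV-Luc hearts (log2 fold change -0.56, standard error 0.08, limma adjusted p = 0.10). Its separation was close to that of Lyz2, and with GC and length trends removed from each library it passed (limma adjusted p = 0.026). C1qa was at 14.9 to 16.4 CPM against 20.7 to 24.3 CPM and C1qc at 14.4 to 18.3 CPM against 23.9 to 27.9 CPM, so that each of the 3 chains was lower in all 4 treated hearts than in any control. C3, the central component, was at 76.4, 73.6, 56.2 and 97.6 CPM in the AAV-CTRP9 hearts and at 105, 127 and 150.2 CPM in the AAV-Luc hearts (log2 fold change -0.76, standard error 0.17, limma adjusted p = 0.25). C4b, which the classical pathway cleaves upstream of C3, was at 3.297 to 6.65 CPM against 7.49 to 12.3 CPM, and the C1 inhibitor gene Serping1 at 76.8 to 89.6 CPM against 92.8 to 119.5 CPM. C3 and C4b are also products of the liver. C4b was at 10.2, 7.49 and 12.3 CPM in Luc_614, Luc_615 and Luc_624, whose hepatocyte sums were 17.1, 176 and 391 CPM, and the part of liver transcripts in C3 and C4b was not tested. Without Luc_614 the limma fold change of C3 was -0.89 (adjusted p = 0.0071).

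Some chemokine genes were lower. Of 40 listed chemokines, cytokines and receptors 21 were measured, and the cytokine genes Il1b, Il6 and Tnf had no value here. Of these 17 had a fold change below 0 and 4 above it. At an unadjusted p under 0.05, 5 (23.8%) were lower and 0 higher, and the median log2 fold change was -0.22. Ccl9, a chemokine of myeloid cells, was at 2.84, 2.55, 1.72 and 3.01 CPM in the AAV-CTRP9 hearts and at 4.79, 6.46 and 4.67 CPM in the AAV-Luc hearts (log2 fold change -1.08, standard error 0.21, limma adjusted p = 0.16). Ccl6, its neighbour in the same family, was at 2.88 to 6.05 CPM against 6.72 to 10.3 CPM, and its whole span is shared with E230016K23Rik on the other strand. Both were apart between groups. Cxcl16, a membrane-bound chemokine and scavenger receptor, was at 4.19 to 5.97 CPM against 6.302 to 7.28 CPM, and the TNF receptor gene Tnfrsf1a at 22.3 to 24.7 CPM against 27.4 to 31.2 CPM.

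Receptors and regulators of the Toll-like receptor and NF-kappaB pathway were mostly within the spread. Of 20 measured of 22, 3 were lower at an unadjusted p under 0.05 and 0 higher, with a median log2 fold change of -0.08. Bcl3, an IkappaB-like coactivator of NF-kappaB, was at 5.55, 5.52, 5.68 and 5.13 CPM in the AAV-CTRP9 hearts and at 7.77, 8.03 and 8.77 CPM in the AAV-Luc hearts (log2 fold change -0.58, standard error 0.10, limma adjusted p = 0.16). Its 3 control values lay above all treated values. Lbp, the lipopolysaccharide-binding protein, was at 3.04 to 3.68 CPM against 3.75 to 6.07 CPM, and Tlr2, a receptor for bacterial lipopeptides, at 0.877 to 1.38 CPM against 1.78 to 2.05 CPM.

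Other leukocytes could be followed only in part. None of 14 listed T and natural killer cell genes had a value, and neither had the B cell markers Cd79a and Ms4a1 or the neutrophil markers S100a8, S100a9 and Retnlg. Of the immunoglobulin genes, Ighd, which encodes the heavy chain of IgD, was at 2.24, 2.37, 3.37 and 2.16 CPM in the AAV-CTRP9 hearts and at 0.892, 1.25 and 0.835 CPM in the AAV-Luc hearts. It was higher in every treated heart (log2 fold change 1.32, standard error 0.23, limma adjusted p = 0.13). Ighm, the IgM heavy chain gene, was at 4.74 to 6.67 CPM against 4.28 to 5.72 CPM and Igkc, the kappa light chain gene, at 0.848 to 2.11 CPM against 0.797 to 1.12 CPM, with overlap in both. The neutrophil list rested on 2 genes. Csf3r, the receptor for G-CSF, was at 1.59 to 2.07 CPM against 1.94 to 3.57 CPM and Lcn2, lipocalin 2, at 1.05 to 2.65 CPM against 1.98 to 4.603 CPM. All 8 measured genes of MHC class II and dendritic cells had a fold change below 0, but 0 were lower at an unadjusted p under 0.05. Their invariant chain gene Cd74 was at 58.03, 66.8, 54.3 and 30.9 CPM in the AAV-CTRP9 hearts and at 51.98, 60.9 and 101 CPM in the AAV-Luc hearts. Luc_624 was the highest and CTRP9_620 the lowest, and the other 5 hearts lay close together.

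**Figure D4:**
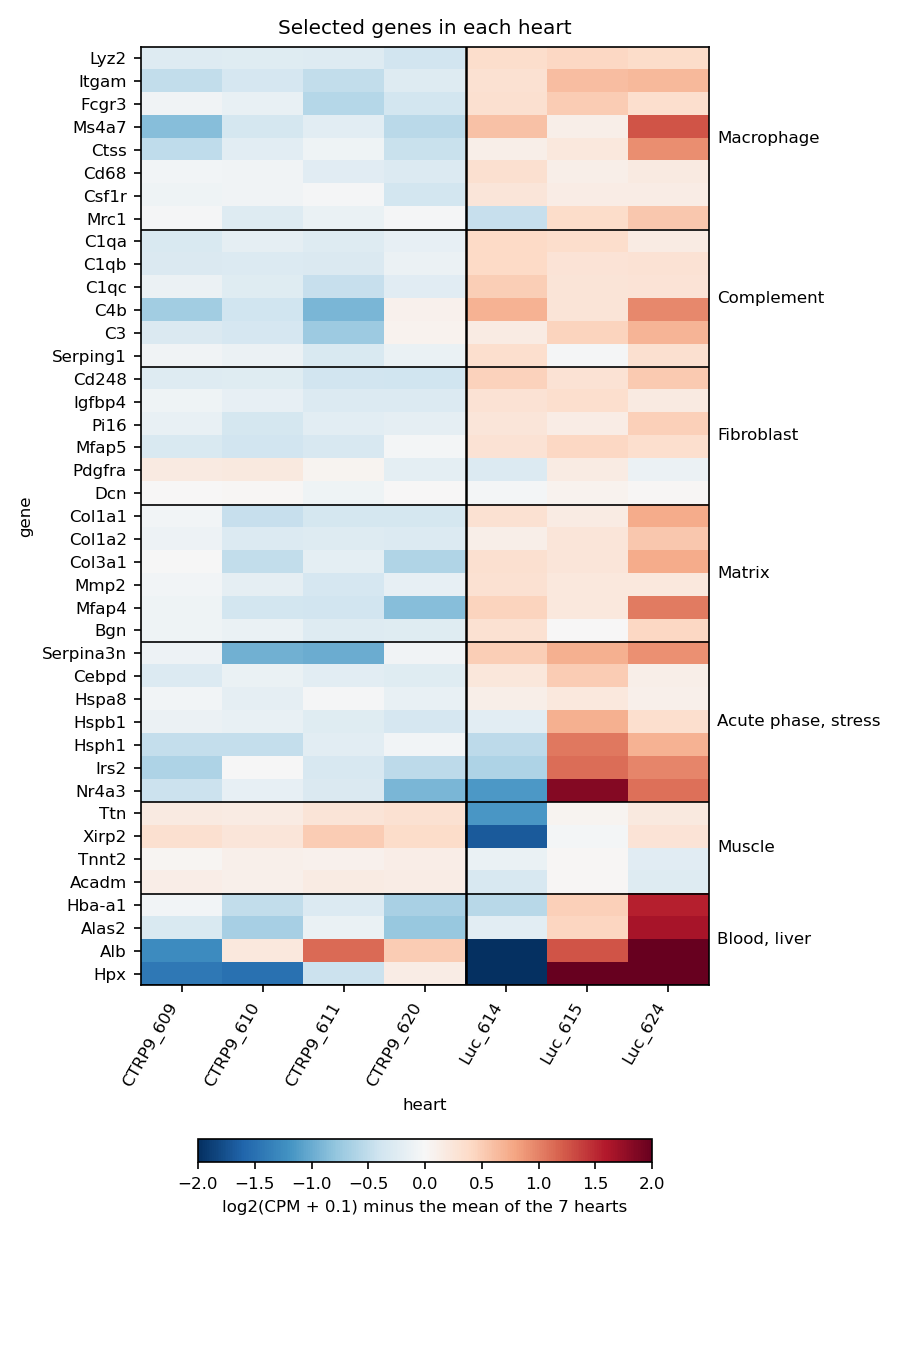
Selected genes (y axis) in each heart (x axis), coloured by log2(CPM + 0.1) minus the mean of the 7 hearts, red for higher and blue for lower. The vertical line parts AAV-CTRP9 from AAV-Luc hearts. Lyz2, the C1q genes and Cd248 are red in all control hearts, whereas Hsph1, Irs2, Nr4a3, Alb and Hpx are red only in Luc_615 and Luc_624 among the controls.

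Fibroblast genes split in their behaviour. All 20 listed had a value, and 14 had a fold change below 0 and 6 above it, up to a log2 fold change of 0.67. At an unadjusted p under 0.05, 7 were lower and 0 higher, Cd248 being the one that passed. Without Luc_614 limma called 4 members lower and 1 higher. The genes that define cardiac fibroblasts did not separate. Pdgfra, the receptor that marks resident fibroblasts, was at 13.3 to 17.3 CPM against 12.5 to 16.99 CPM, the transcription factor gene Tcf21 at 4.24 to 5.804 CPM against 4.63 to 6.44 CPM, and the proteoglycan gene Dcn at 185 to 198 CPM against 189.7 to 206 CPM. Other members did separate, on the lower side only. Igfbp4, which binds insulin-like growth factors, was at 44.2, 41.7, 38.6 and 38.7 CPM in the AAV-CTRP9 hearts and at 57.4, 58.9 and 53.3 CPM in the AAV-Luc hearts (log2 fold change -0.47, standard error 0.08, limma adjusted p = 0.13). Pi16, a marker of adventitial fibroblasts, was at 31.8, 27.7, 30.6 and 31.4 CPM in the AAV-CTRP9 hearts and at 42.03, 39.4 and 49.5 CPM in the AAV-Luc hearts (log2 fold change -0.52, standard error 0.10, limma adjusted p = 0.16). No control heart overlapped a treated heart in either. The microfibril gene Mfap5 was at 5.66 to 7.28 CPM against 9.15 to 9.92 CPM.

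Collagen genes were lower in the AAV-CTRP9 hearts without a call. Of 19 measured of 20, 18 had a fold change below 0, and 11 (57.9%) were lower at an unadjusted p under 0.05, against 4.36% of all genes, with groups apart for 9 (47.4%), against 4.54%. The median log2 fold change was -0.30, and -0.37 to -0.27 with a heart left out. Col1a1, a chain of the main fibrillar collagen of scar, was at 55.8, 41.9, 45.4 and 45.2 CPM in the AAV-CTRP9 hearts and at 71.6, 64.5 and 96.2 CPM in the AAV-Luc hearts (log2 fold change -0.71, standard error 0.14, limma adjusted p = 0.16). Its partner Col1a2 was at 41.3, 36.5, 37.2 and 36.8 CPM in the AAV-CTRP9 hearts and at 48.4, 52.5 and 64.7 CPM in the AAV-Luc hearts (log2 fold change -0.53, standard error 0.10, limma adjusted p = 0.16). In both, Luc_624 was the highest heart. Col3a1, the fibrillar collagen of compliant tissue, was at 37.8 to 57.1 CPM against 67.7 to 95.8 CPM, and Col6a3, of the microfibrillar collagen around cells, at 19.04 to 23.4 CPM against 25.6 to 28.4 CPM.

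Matrix proteins other than collagens gave the same picture. Of 31 measured of 35, 15 (48.4%) were lower at an unadjusted p under 0.05 and 0 higher, with a median log2 fold change of -0.30. Mmp2, a gelatinase, was at 32.1, 29.3, 26.2 and 29.5 CPM in the AAV-CTRP9 hearts and at 40.9, 38.4 and 38.5 CPM in the AAV-Luc hearts (log2 fold change -0.43, standard error 0.09, limma adjusted p = 0.18). Mfap4, an elastic fibre protein, was at 6.65 to 11.4 CPM against 13.99 to 25.1 CPM, the crosslinking enzyme gene Loxl1 at 22.1 to 24.9 CPM against 28.8 to 34.4 CPM and the proteoglycan gene Bgn at 145 to 164 CPM against 176 to 231 CPM. Each of these groups was apart. Sod3, the extracellular superoxide dismutase, was at 56.04, 57.7, 55.8 and 52.00 CPM in the AAV-CTRP9 hearts and at 73.7, 72.6 and 71.7 CPM in the AAV-Luc hearts (log2 fold change -0.39, standard error 0.07, limma adjusted p = 0.15). Its control values lay close together. The secreted scavenger receptor gene Ssc5d was at 9.02 to 10.96 CPM against 13.6 to 15.1 CPM, with 22.7% of its span shared with Sbk2, and S100a11, a calcium-binding protein, was at 10.8 to 11.7 CPM against 15.2 to 15.95 CPM.

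**Figure D5:**
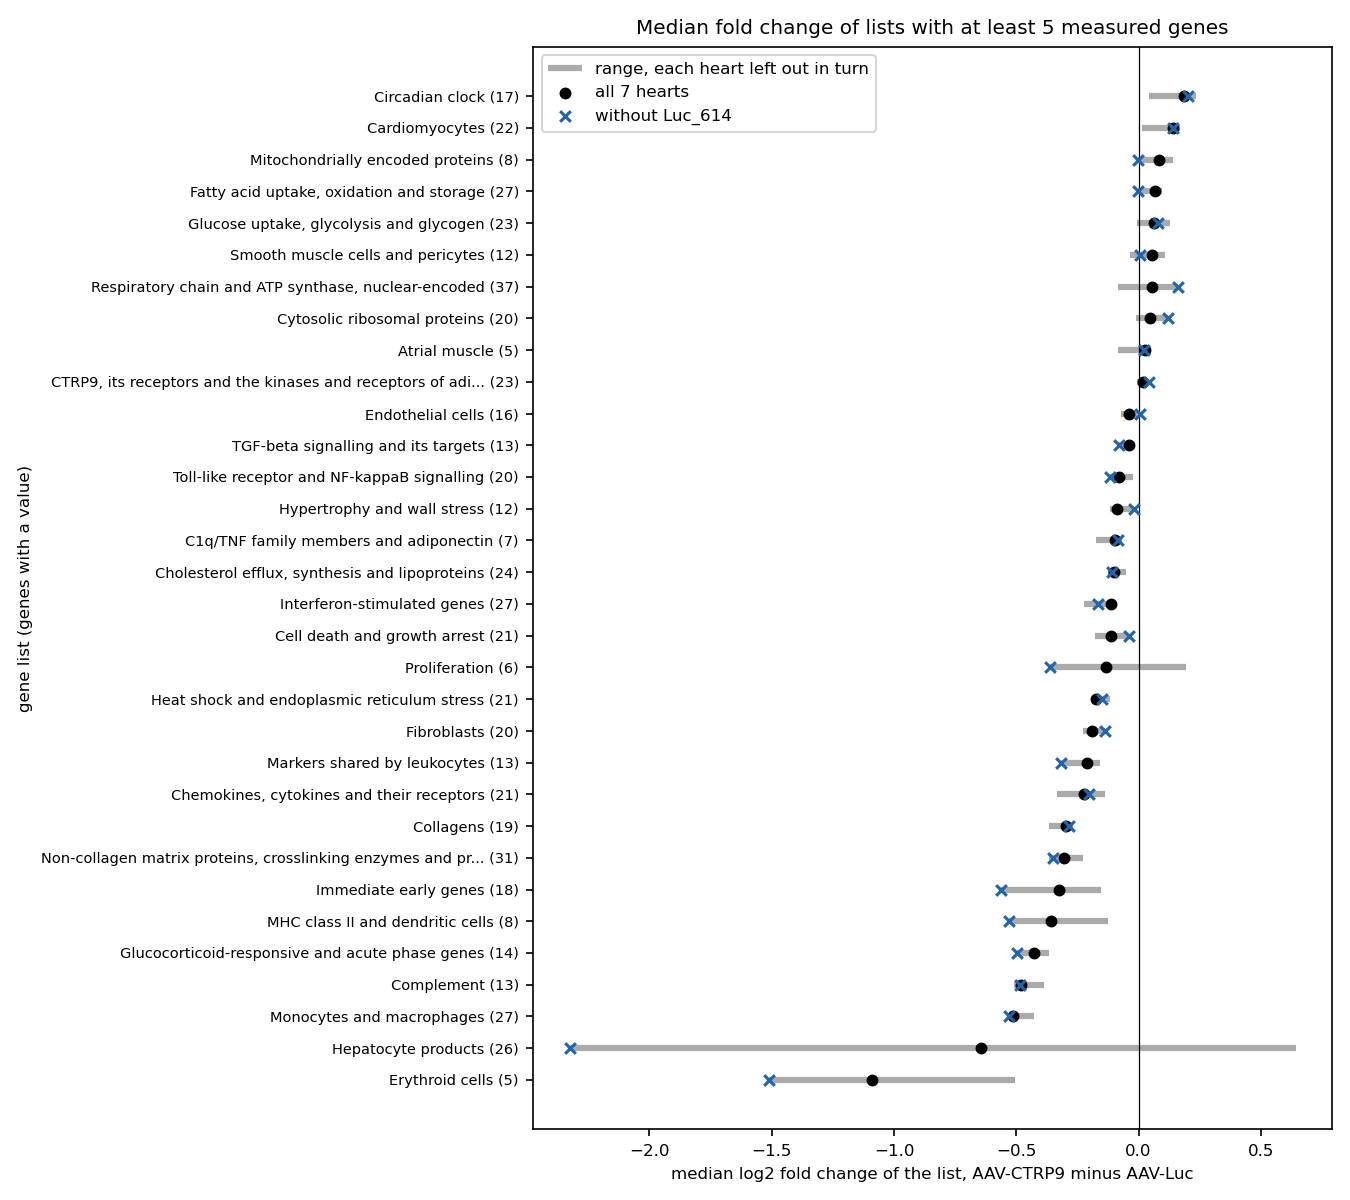
Median log2 fold change (x axis) of each gene list with at least 5 measured genes (y axis, number measured in brackets). Black points are all 7 hearts, crosses the fit without Luc_614, and grey bars the range with each heart left out in turn. Monocytes and macrophages, complement and collagens stay below 0 throughout, whereas hepatocyte products range from -2.33 to 0.64. Further lists also stay below 0, among them erythroid cells (-1.51 to -0.51) and immediate early genes (-0.56 to -0.15).

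Apoe and Ucp2 were among the genes with the smallest p on the lower side. Apoe, an apolipoprotein made by macrophages and liver, was at 90.3, 95.3, 89.4 and 101 CPM in the AAV-CTRP9 hearts and at 133, 148 and 186 CPM in the AAV-Luc hearts (log2 fold change -0.72, standard error 0.11, limma adjusted p = 0.11). Luc_624, with the most hepatocyte transcripts, held the highest level, and Luc_614, with the fewest, was at 133 CPM. The part of liver transcripts in Apoe was not tested. Ucp2, an uncoupling protein of the inner mitochondrial membrane that is abundant in macrophages, was at 30.9, 29.2, 26.3 and 33.6 CPM in the AAV-CTRP9 hearts and at 51.3, 43.1 and 46.3 CPM in the AAV-Luc hearts (log2 fold change -0.65, standard error 0.10, limma adjusted p = 0.11). It was apart between groups and passed limma with GC and length trends removed (adjusted p = 0.040).

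Acute phase and glucocorticoid-responsive genes were lower in 6 of 14 measured cases at an unadjusted p under 0.05, with a median log2 fold change of -0.43. Serpina3n, an acute phase protease inhibitor, was at 11.6, 6.34, 6.21 and 11.8 CPM in the AAV-CTRP9 hearts and at 17.4, 20.4 and 23.6 CPM in the AAV-Luc hearts (log2 fold change -1.24, standard error 0.24, limma adjusted p = 0.16). The treated hearts formed pairs, CTRP9_609 and CTRP9_620 higher and CTRP9_610 and CTRP9_611 lower, and every control was above them. Cebpd, a transcription factor of the acute phase response, was at 6.22 to 6.87 CPM against 8.12 to 10.7 CPM, and Mt2, metallothionein 2, at 4.601 to 10.7 CPM against 11.01 to 16.6 CPM. The hepatocyte sums given above were higher in Luc_615 and Luc_624 than in other hearts, and their part in the values of this list was not tested. Luc_614 held Serpina3n at 17.4 CPM.

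Chaperone and immediate early genes depended on which control hearts were read. Of 21 measured heat shock and endoplasmic reticulum stress genes, 7 were lower at an unadjusted p under 0.05. Hspa8, the constitutive HSP70, was at 151, 139, 156 and 142 CPM in the AAV-CTRP9 hearts and at 171, 182 and 169 CPM in the AAV-Luc hearts (log2 fold change -0.24, standard error 0.07, limma adjusted p = 0.42), apart between groups, as was the small heat shock protein gene Cryab at 839.7 to 922 CPM against 957 to 1049 CPM. Hsph1, an HSP110 co-chaperone, was at 14.9, 14.8, 17.9 and 19.9 CPM in the AAV-CTRP9 hearts and at 14.3, 43.3 and 33.6 CPM in the AAV-Luc hearts. Here Luc_614 was the lowest of the 7 hearts and the other controls were the highest, and without Luc_614 the limma fold change was -1.19 (adjusted p = 0.00085). Of 18 immediate early genes 17 had a fold change below 0 and 3 were lower at an unadjusted p under 0.05. Jun was at 30.1 to 36.98 CPM against 37.8 to 50.6 CPM. Nr4a3, an orphan nuclear receptor, was at 1.48, 1.81, 1.65 and 1.03 CPM in the AAV-CTRP9 hearts and at 0.859, 7.53 and 4.44 CPM in the AAV-Luc hearts, with the same order of hearts as Hsph1 in the controls, and without Luc_614 the limma fold change was -1.96 (adjusted p = 0.0018). Sik1, a salt-inducible kinase, was at 11.9, 17.7, 21.9 and 12.7 CPM in the AAV-CTRP9 hearts and at 15.1, 39.5 and 28.7 CPM in the AAV-Luc hearts, and without Luc_614 the limma fold change was -1.11 (adjusted p = 0.010). Without Luc_614 the median of the immediate early genes went from -0.33 to -0.56, and without Luc_615 to -0.15.

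Interferon-stimulated genes were lower in 5 of 27 measured cases at an unadjusted p under 0.05 and higher in 0, with a median log2 fold change of -0.11. Ifi27l2a was at 1.48, 2.37, 1.47 and 2.65 CPM in the AAV-CTRP9 hearts and at 3.83, 2.86 and 3.87 CPM in the AAV-Luc hearts (log2 fold change -0.84, standard error 0.24, limma adjusted p = 0.40), apart but with few reads. Isg15, a ubiquitin-like modifier, was at 0.466 to 0.991 CPM against 1.25 to 1.82 CPM, and Irf7, the master regulator of type I interferon, at 6.72 to 8.56 CPM against 7.78 to 11.8 CPM with overlap.

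No gene of the fuel metabolism lists passed limma, and single genes are given as levels. All 27 genes of fatty acid uptake, oxidation and storage were measured, with a median of 0.07. At an unadjusted p under 0.05, 2 were higher and 5 (18.5%) lower, where 4.3% of all genes were higher and 4.36% lower. Acadm, the medium-chain acyl-CoA dehydrogenase, was at 335, 326, 341 and 339 CPM in the AAV-CTRP9 hearts and at 244, 309.6 and 256 CPM in the AAV-Luc hearts (log2 fold change 0.32, standard error 0.09, limma adjusted p = 0.40). The treated hearts lay within a narrow range above all controls. Plin2, the lipid droplet coat protein, was at 21.8, 18.5, 19.1 and 22.1 CPM in the AAV-CTRP9 hearts and at 24.2, 27.4 and 25.7 CPM in the AAV-Luc hearts (log2 fold change -0.34, standard error 0.09, limma adjusted p = 0.40). It was lower in every treated heart. Angptl4, an inhibitor of lipoprotein lipase that responds to fatty acids, was at 11.4, 7.11, 8.14 and 9.12 CPM in the AAV-CTRP9 hearts and at 9.78, 18.8 and 17.5 CPM in the AAV-Luc hearts, with Luc_614 inside the treated range, and its limma fold change without that heart was -1.04 (adjusted p = 0.0031). Of 23 genes of glucose uptake, glycolysis and glycogen 1 was higher at an unadjusted p under 0.05, Pfkm, the muscle phosphofructokinase, at 271 to 286 CPM against 227 to 259 CPM. Of 37 nuclear-encoded genes of the respiratory chain 31 had a fold change above 0. At an unadjusted p under 0.05, 1 was higher, Ndufs1 of complex I. Both counts, 1 of 23 and 1 of 37, are close to or below the 4.3% of all genes. Ndufs1 was at 157, 155, 159 and 156 CPM in the AAV-CTRP9 hearts and at 105, 158 and 120.3 CPM in the AAV-Luc hearts, so that Luc_615 lay inside the treated range. The median of this list was 0.05 over 7 hearts and ranged from -0.09 to 0.16 with a heart left out.

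Cardiomyocyte genes leaned the other way from macrophage and matrix genes. Of 22 measured, 21 had a fold change above 0 and 3 were higher at an unadjusted p under 0.05, with a median log2 fold change of 0.14 that was 0.02 without Luc_624. Tnnt2, cardiac troponin T, was at 1731, 1808, 1791 and 1843 CPM in the AAV-CTRP9 hearts and at 1542, 1709 and 1435 CPM in the AAV-Luc hearts (log2 fold change 0.20, standard error 0.09, limma adjusted p = 0.56). Csrp3, a protein of the Z disc, was at 227 to 263 CPM against 207 to 225 CPM. Pln, the inhibitor of the calcium pump, was at 2027 to 2232 CPM against 1654 to 2031 CPM, and its whole span lies within Cep85l. Xirp2, an actin-binding protein of the intercalated disc, was at 448, 425, 513 and 464 CPM in the AAV-CTRP9 hearts and at 113, 351 and 436 CPM in the AAV-Luc hearts. Luc_614 was far below every other heart in Xirp2 as in Ttn, and without it the limma fold change of Xirp2 went from 0.84 to 0.24. Nppa, the atrial natriuretic peptide gene, was at 32.9, 26.6, 16.2 and 19.9 CPM in the AAV-CTRP9 hearts and at 51.7, 17.1 and 59.03 CPM in the AAV-Luc hearts, and its groups overlapped.

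Vascular genes differed little as a list. Of 16 endothelial genes 1 was higher and 3 were lower at an unadjusted p under 0.05, with a median of -0.04. Cldn5, a tight junction protein of endothelium, was at 8.85, 6.299, 8.73 and 7.74 CPM in the AAV-CTRP9 hearts and at 10.1, 10.6 and 15.5 CPM in the AAV-Luc hearts (log2 fold change -0.59, standard error 0.17, limma adjusted p = 0.40), apart between groups with Luc_624 the highest. Vwf, the von Willebrand factor gene, was at 20.5 to 26.3 CPM against 24.5 to 31.2 CPM. Smooth muscle and pericyte genes had a median of 0.05, and cytosolic ribosomal protein genes of 0.05.

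Genes higher with AAV-CTRP9 belonged to no single list. After C1qtnf9, Mipepos and Ighd, those with the smallest p among genes whose groups did not overlap included Scin, Ctf1, Btbd3, Myh7b, P2rx6, Pcnt and Cep128. Ctf1, cardiotrophin 1, a cytokine of the interleukin 6 family that drives cardiomyocyte growth, was at 3.09, 2.796, 3.09 and 3.500 CPM in the AAV-CTRP9 hearts and at 1.88, 2.03 and 1.71 CPM in the AAV-Luc hearts. The lowest treated heart was above the highest control (log2 fold change 0.72, standard error 0.15, limma adjusted p = 0.23). Scin, an actin-severing protein, was at 1.91, 2.19, 2.63 and 1.803 CPM in the AAV-CTRP9 hearts and at 1.09, 1.11 and 0.721 CPM in the AAV-Luc hearts (log2 fold change 1.11, standard error 0.23, limma adjusted p = 0.20), at a level of few reads. Btbd3, a BTB domain protein, was at 10.8, 9.73, 10.5 and 11.2 CPM in the AAV-CTRP9 hearts and at 8.39, 7.57 and 7.06 CPM in the AAV-Luc hearts (log2 fold change 0.46, standard error 0.10, limma adjusted p = 0.26). Both were apart between groups. Myh7b, a slow-type myosin heavy chain that hosts a microRNA, was at 44.9, 46.2, 45.9 and 47.4 CPM in the AAV-CTRP9 hearts and at 37.5, 38.5 and 35.5 CPM in the AAV-Luc hearts (log2 fold change 0.31, standard error 0.07, limma adjusted p = 0.27). P2rx6, an ATP-gated channel, was at 5.02 to 5.19 CPM against 2.39 to 3.85 CPM. The centrosome genes Pcnt and Cep128 were at 35.6 to 41.1 CPM against 29.6 to 30.5 CPM and 6.91 to 11.2 CPM against 5.53 to 5.82 CPM. Cenpf, a kinetochore protein of dividing cells, was at 9.14, 11.6, 7.58 and 9.09 CPM in the AAV-CTRP9 hearts and at 1.16, 3.96 and 5.998 CPM in the AAV-Luc hearts (log2 fold change 1.60, standard error 0.43, limma adjusted p = 0.39). It was apart between groups, with Luc_614 at 1.16 CPM the lowest, and without Luc_614 the limma fold change was 0.92 (adjusted p = 0.017). The other 5 measured proliferation genes had fold changes below 0, and the median of the list was -0.13. Top2a, Ccnb1 and Cdk1 had no value here.

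Hearts without virus offer values of the same genes under loss of CTRP9, from a table of 1230 symbols that its authors had already selected for a difference between KO and WT. Of the 108 genes named for the AAV hearts 14 are in it. C1qtnf9 was at 517, 442 and 510.1 scaled counts in WT and at most 1.95 in KO hearts. Cd248 was at 443, 223 and 322 in WT and at 277, 292, 237 and 196 in KO hearts, with overlap. Its mean was thus lower both with CTRP9 added and with CTRP9 removed, each against its own controls. Of the 14 genes, C1qtnf9 aside, 10 had the same direction in both experiments and 3 the opposite one. The share over the other symbols of that table was not computed, so these counts have no background. They include S100a11, Snai3 and Rnf207, which were chosen after their values were seen. Sod3, S100a11, Col1a1, Col6a3, Hspa8 and Nppa were lower in both as Cd248 was, and Pln, Csrp3 and Cep128 higher in both. Among these, KO and WT hearts overlapped for Sod3, S100a11, Col1a1, Col6a3, Nppa and Cep128, as they did for Ttn and Rnf207. Lyz2 and the C1q genes are not in that table. Snai3, a zinc finger repressor chosen here after its values were seen, was at 64.5, 77.5 and 62.5 in WT and at 46.8, 34.1, 53.4 and 44.9 in KO hearts, lower without overlap, and at 6.14, 4.88, 4.42 and 6.47 CPM in the AAV-CTRP9 hearts and at 3.404, 2.78 and 1.22 CPM in the AAV-Luc hearts, higher without overlap. Rnf207, chosen in the same way, and Ttn also had the lower mean in KO and the higher mean in AAV-CTRP9 hearts. The difference between the experiments was not tested, as they share no hearts and no normalization.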

How the data were processed

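RNA from whole hearts was sequenced as single-end reads of 50 bases, and per the labels the authors used Bowtie2 and mm10. The program that counted reads and its use of strand were not given in the sources used here. The deposited log2 CPM values are the authors' values per Ensembl transcript (25990 rows, 275 without a symbol). All of them gave whole reads within 0.001 once a prior count of 1 was removed. Spans were taken from GENCODE M21. For KO and WT hearts the authors deposited raw counts of selected genes, which were divided here by median-of-ratios factors over those genes; 14 per-sample columns labelled TMM or RPKM were not used. Their fold changes, p-values and selected sheets were left out.

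Symbols were tested with limma 3.58.1 with a variance trend in R 4.3.3. edgeR 4.0.16 and DESeq2 1.42.0 were run on recovered reads; scripts were tested on simulated data. Alternatives covered scaling, prior count, filter, weights, transcripts summed, trend removal and each heart left out. The likelihood ratio test was added after the data were seen. Gene lists (38, of which 37 had a measured member) and members were chosen with earlier results of these data known, and the hepatocyte list after its values were seen. Named genes are C1qtnf9, Ptprc, genes past the threshold, the 12 smallest p per direction with groups apart and a mean of at least 1 CPM, up to 4 members per list by p, and cell type markers. Some genes that the rule names are not reported here. Outside it are Adipor1, Cdh13, Slc2a4, Ctss, Mrc1, C3, Serping1, S100a11, Hsph1, Snai3, Rnf207, Zmat1 and the hepatocyte genes. Tables and figures used Python 3.11.15, pandas 2.3.3 and matplotlib 3.10.9.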

Additional observations from a re-analysis of the deposited data

Results flagged for a closer look

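Among the 4 AAV-CTRP9 hearts, 7 of 108 genes had 1 heart far from the rest by Dixon's test, a test that chance passes in about 1 of 20 groups, and groups of 3 were not tested. CTRP9_620 held Rac2 at 1.49 CPM, with the nearest heart at 2.91 CPM. It held C1qb at 29.1 CPM, with the nearest at 26.3 CPM, and Vwf at 26.3 CPM, with the nearest at 21.5 CPM. CTRP9_611 held H2-DMb1, a chaperone of MHC class II loading, at 1.26 CPM and Dcn at 184.6 CPM, next to 0.99 and 196.7 CPM. CTRP9_609 held Col1a2 at 41.3 CPM and Ssc5d at 10.96 CPM, next to 37.2 and 9.33 CPM.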

How the results depend on the processing

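Genes past the threshold numbered 2 with quasi-likelihood, TMM computed anew, upper quartile, the CPM filter, both prior counts and an adjusted p under 0.1. They numbered 84 with the likelihood ratio test, 61 with DESeq2, 171 with array weights, 8 with GC and length trends removed, 1 with library totals only and 0 with transcripts summed or limma without a trend, where 1066 had an unadjusted p under 0.05. Without single hearts they numbered 0 to 150. Genes at an unadjusted p under 0.05 numbered 1146, 2043 with array weights and 749 to 1667 without single hearts. Of 108 named genes, 5 changed direction in some setting. Adipor1 went from -0.016 to 0.020 with trends removed and lay between -0.075 and 0.049 with a heart left out. Ptprc went from 0.25 to -0.044 with quasi-likelihood, -0.054 with the likelihood ratio test, -0.071 with DESeq2, and between -0.40 and 0.84 with a heart left out. With array weights Pdgfra went to -0.026, Tcf21 to 0.026 and Nppa to 0.0044, and Tcf21 lay between -0.18 and 0.061 with a heart left out. Of 740 list medians 30 moved by more than the spread between hearts. The causes were not tested. No paired analysis was possible because the heart numbers of the 2 groups are all different. There were 3 control hearts, 1 of them apart in GC trend, and a p that missed the threshold does not show that a gene did not differ.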

Other observations

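The circadian clock genes, followed in all 17 listed, had the highest list median of those with at least 5 measured genes, 0.19, with 12 fold changes above 0, but 0 passed an unadjusted p under 0.05 in either direction by limma, and the median was 0.04 without Luc_624. Genes of TGF-beta signalling had a median of -0.04, with 2 of 13 lower at an unadjusted p under 0.05, in contrast to collagens at -0.30. Of 12 genes of hypertrophy and wall stress 5 had a fold change above 0 and 7 below it. At an unadjusted p under 0.05, 1 was higher and 1 lower. Among genes of cell death and growth arrest, Cdkn1a, an inhibitor of cyclin-dependent kinases, was at 10.1, 8.35, 14.3 and 31.2 CPM in the AAV-CTRP9 hearts and at 34.99, 32.1 and 30.1 CPM in the AAV-Luc hearts (log2 fold change -1.21, standard error 0.35, limma adjusted p = 0.40). Of the treated hearts only CTRP9_620 was within the range of the controls. Of 24 genes of cholesterol handling 5 were higher and 2 lower at an unadjusted p under 0.05, with Abca8a, an ABC transporter, at 32.04 to 37.6 CPM against 20.4 to 31.5 CPM and Apoe among the lower ones.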
